A study of Homo sapiens with 4 samples.

Results

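The collagens described here are 6 genes, COL4A1, COL4A2, COL7A1, COL17A1, COL18A1 and COL5A1. Except for COL5A1, which encodes a chain of a fibrillar collagen, their products form or anchor the basement membrane beneath epithelial cells. The 6 genes were chosen by symbol, and every crosslink site whose deposited label holds one of these symbols was counted. Sites were listed for 5 of the 6 genes, out of 14387 genes with a site. In the PDCD4 list 186 of 158922 sites lay in these genes, and in the IgG list 53 of 111361 sites. No site of the collagens carried a second gene label.

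A collagen chain is built from repeats of glycine and 2 further residues (Gly-X-Y), which allow chains to wind into a triple helix. The chains are made on the endoplasmic reticulum, where enzymes hydroxylate and glycosylate them before secretion. In the basement membrane, type IV collagen forms a network next to laminin, type XVII collagen spans the plasma membrane at hemidesmosomes, and type VII collagen forms the anchoring fibrils that reach into the stroma. The repeats are encoded by many short exons, so that collagen transcripts are divided more finely than most mRNAs.

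In iCLIP, RNA is crosslinked to protein with UV light, the protein is immunoprecipitated, and cDNAs that end at the crosslinked nucleotide are counted. Wild-type MCF10A cells, an established untransformed line of breast epithelium grown with serum, epidermal growth factor, insulin, hydrocortisone and cholera toxin, were immunoprecipitated with PDCD4 antibody (2 replicates) or with isotype control IgG (2 replicates). PDCD4 is an RNA-binding tumour suppressor, and the comparison asks which RNAs it contacts beyond the background of the control antibody. The replicates of each antibody are pooled in 1 list, so there was no spread between replicates and no test, and all intervals are exact 95% intervals for counting error only.

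The PDCD4 list held 409308 cDNAs and the IgG list 276139. Sites were found with PDCD4 in all 10 markers of breast epithelium examined and with IgG in 9, whereas those of endothelium (3) and immune cells (2) had none. Of 6 fibroblast markers only DCN was listed, with 2 cDNAs in each list, and the fibrillar collagens COL1A1, COL1A2 and COL3A1 were not listed. Abundance of the RNAs was not analysed here, so more transcripts and more contacts per transcript cannot be told apart in the PDCD4 list.

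The sequences around a site with the most cDNAs in each of the 5 collagens (of tied sites, the one with the lower coordinate) are shown first, because they place the contacts within the transcripts, together with the leading 3′UTR site and a run of adjacent sites of COL4A2. Each is 29 nt of the GRCh38 genome, 5′ to 3′ on the strand of the gene. Capitals mark only the site or run named, and any further listed site in a window is in lower case.
COL4A2 exon 5, coding, 7 cDNAs, chr13:110424775-110424803, plus strand: accaggattacaagGattcccgggactgc
COL4A2 exon 48, 3′UTR, 6 cDNAs, chr13:110512916-110512944, plus strand: acgttgtccctgagAtttaacccctccac
COL4A2 intron 3, 5 adjacent sites with 13 cDNAs, chr13:110325779-110325807, plus strand: cctgaatttcttTTTTTtttttttagacg
COL4A1 exon 51, coding, 4 cDNAs, chr13:110152409-110152437, minus strand: agaagtgcgccattCatcgagtgtcacgg
COL17A1 exon 25, coding, 6 cDNAs, chr10:104051490-104051518, minus strand: aggttccagcggctCtcctggcccacagg
COL7A1 exon 116, coding, 4 cDNAs, chr3:48565457-48565485, minus strand: agttatgctgcagaCactgccggctccca
COL18A1 intron 3, 5 cDNAs, chr21:45473869-45473897, plus strand: tgacccctttctctGtctgcatttagggg

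The leading COL4A2 and COL17A1 sites lay within Gly-X-Y repeats, in codons 79 and 672. The COL4A1 and COL7A1 sites shown lay in coding sequence outside the repeats, in codons 1613 and 2822, but were tied in score. COL4A1 had 3 sites with 4 cDNAs, the others in exon 48 and, within the repeats, in exon 37 (codon 1039). COL7A1 had a further site with 4 cDNAs in intron 13. The leading COL18A1 site lay 12 nt before the 3′ splice site (3′SS) of its intron, in a window rich in pyrimidines that ends in the splice acceptor. Next in score came COL17A1 sites in exons 15 and 17 (5 cDNAs each) and a COL18A1 site in intron 2 (3 cDNAs). The run of adjacent COL4A2 sites was chosen after its values were seen and lies within a tract of T. None of the other bases in capitals was a T. However, the COL4A2 3′UTR site shown, at 110512930, was tied with 110512932, also with 6 cDNAs and at a T in the same window. That window also holds sites at 110512929 and, at a T, 110512933, with 2 cDNAs each.

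Collagen transcripts took a larger share of the PDCD4 list than of the IgG list. In the PDCD4 list the 6 genes held 472 cDNAs (0.115% of the list), and in the IgG list 135 cDNAs (0.0489%). The log2 ratio of the shares, with 1 cDNA added to each sum, was 1.23 (0.96 to 1.52). The excess was one of site number rather than of height, since a collagen site held on average 2.54 cDNAs with PDCD4 and 2.55 with IgG, with a median of 2 in both.

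Of the 5 collagens that could be compared (at least 10 cDNAs over both lists), COL4A2, COL7A1 and COL18A1 were at least 2-fold higher in the PDCD4 list and none was at least 2-fold lower. Among the 9585 genes compared in this way, 18.8% were at least 2-fold higher and 18.1% at least 2-fold lower. The median log2 ratio of the 5 collagens was 1.56, against -0.08 for all genes compared. With 5 genes, these values describe the collagens and are not a test.

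COL4A2 (ENSG00000134871, chr13:110305812-110513209, plus strand), which encodes the α2 chain of type IV collagen, held most of the signal. It had 107 sites with 274 cDNAs in the PDCD4 list and 24 sites with 62 cDNAs in the IgG list. Per 10000 cDNAs of a list this was 6.69 against 2.25, a log2 ratio of 1.56 (1.17 to 1.998). By summed cDNAs it ranked 126th among genes of the former list and 1002nd in the latter. Without COL4A2, the remaining collagens held 198 and 73 cDNAs, a log2 ratio of 0.86 (0.48 to 1.28).

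COL4A1 (ENSG00000187498, chr13:110148963-110307157, minus strand) encodes the α1 chain, which assembles with α2, and lies head to head with COL4A2. It had 24 sites with 58 cDNAs in the PDCD4 list and 16 sites with 35 cDNAs in the IgG list. Its shares were 1.42 and 1.27 per 10000, a log2 ratio of 0.14 (-0.47 to 0.81). The partner genes therefore differed, with a log2 ratio higher in COL4A2 than in COL4A1 by 1.41 (0.64 to 2.18) in cDNAs and by 1.56 (0.34 to 2.78) in sites, as odds ratios with exact intervals.

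COL17A1 (ENSG00000065618, chr10:104031286-104085880, minus strand), the hemidesmosomal collagen, had 33 sites with 82 cDNAs in the PDCD4 list and 12 sites with 35 cDNAs in the IgG list. Its shares were 2.003 and 1.27 per 10000, a log2 ratio of 0.64 (0.07 to 1.28), which did not reach 2-fold. A single PDCD4 site labelled COL17A1 lay outside the gene as annotated here.

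COL7A1 (ENSG00000114270, chr3:48564073-48595329, minus strand), the anchoring fibril collagen, had 13 sites with 36 cDNAs in the PDCD4 list and was not listed for IgG. Its share was 8.10-fold higher in the PDCD4 list when set against a floor of 3 cDNAs over the IgG list. This value covers listed sites only and leaves out the counting error of the 36 cDNAs. The exact interval of the log2 ratio, without a floor, began at 2.64 and had no upper limit. The log2 ratio of 4.64 with 1 cDNA added depended on that addition, and was 2.47 with 5 added.

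COL18A1 (ENSG00000182871, chr21:45405165-45513720, plus strand), a basement membrane collagen that carries heparan sulphate, had 22 cDNAs at 9 PDCD4 sites and 3 cDNAs at 1 IgG site. The log2 ratio was 1.96 (0.57 to 4.69). COL5A1 (ENSG00000130635, chr9:134641803-134844843, plus strand), a chain of the fibrillar type V collagen, had no site in either list.

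**Figure D1:**
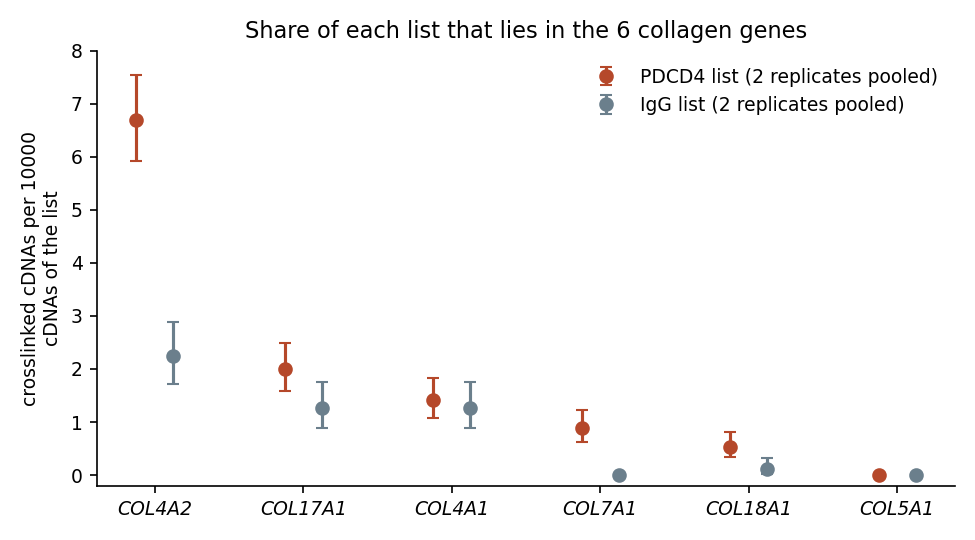
Crosslinked cDNAs per 10000 cDNAs of a list (linear axis) in each of the 6 collagen genes, for the PDCD4 list and the IgG list, each with 2 replicates pooled. Bars are exact 95% intervals for counting error and are left out where nothing was listed. COL4A2 stands at 6.69 against 2.25, the COL4A1 values nearly coincide (1.42 and 1.27), and COL5A1 is at 0 in both.

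For the collagens together, the excess over IgG was larger in exons than in introns. Exonic sites of the collagens held 309 cDNAs with PDCD4 and 46 with IgG, a log2 ratio of 2.15 (1.73 to 2.66), where exonic sites of all genes gave 0.58. Intronic sites held 161 and 89 cDNAs, a log2 ratio of 0.28 (-0.09 to 0.68), with -0.44 over all genes. The ratio was higher in exons than in introns by 1.89 (1.28 to 2.51) in cDNAs and by 1.86 (0.87 to 2.89) in sites. Over all genes exons were also above introns, so the direction of this difference is not particular to the collagens.

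COL4A2 had the highest exonic ratio of the 3 genes with both kinds of site in both lists. Its exons held 199 cDNAs at 75 PDCD4 sites and 20 cDNAs at 6 IgG sites, a log2 ratio of 2.68 (2.08 to 3.49). Its introns held 75 cDNAs at 32 PDCD4 sites and 42 cDNAs at 18 IgG sites, a log2 ratio of 0.25 (-0.30 to 0.85). Per kb, PDCD4 sites were thus found at 11.6 in COL4A2 exons and 0.160 in its introns. IgG sites were also denser in its exons, at 0.931 per kb against 0.0902 in its introns.

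In COL4A1 exons and introns differed in direction, as they did over all genes. The exons held 40 cDNAs with PDCD4 and 10 with IgG, a log2 ratio of 1.33 (0.41 to 2.60), an interval that included the value of all exonic sites (0.58). The introns held 18 and 25 cDNAs, a log2 ratio of -1.02 (-2.002 to -0.11). This interval, too, included the value of all intronic sites (-0.44). Between COL4A2 and COL4A1, the exonic ratios differed by 1.31, with an interval that included 0 (-0.06 to 2.60), and the intronic ratios by 1.30 (0.19 to 2.44). Counted in sites, both of these intervals included 0.

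For COL17A1 the exonic cDNAs numbered 51 with PDCD4 and 16 with IgG, a log2 ratio of 1.05 (0.27 to 2.01). This interval included the value of all exonic sites (0.58). The intronic cDNAs of COL17A1, 29 and 19, gave 0.02 (-0.84 to 0.96). For COL7A1 and COL18A1 the ratios in exons and introns could not be compared, because too few IgG cDNAs were listed. COL7A1 had 17 cDNAs at 6 coding sites and 19 at 7 intronic sites with PDCD4, and none listed with IgG. COL18A1 had 2 cDNAs at 1 coding site with PDCD4 and none with IgG, and its intronic cDNAs, 20 and 3, gave a log2 ratio of 1.82 (0.42 to 4.56).

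**Figure D2:**
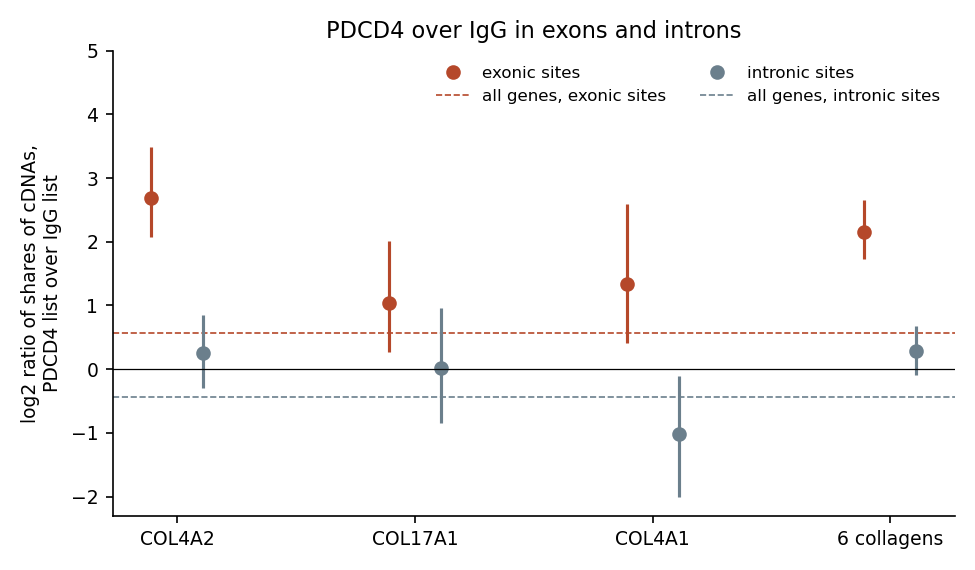
Log2 ratio of the shares of cDNAs, PDCD4 list over IgG list, for exonic and intronic sites of COL4A2, COL17A1 and COL4A1 and of the 6 collagens together. Vertical lines are exact 95% intervals for counting error, and dashed lines are the values over all genes (0.58 for exonic and -0.44 for intronic sites). Exonic values lie above the intronic ones in each gene drawn, as in COL4A2 (2.68 against 0.25). COL7A1 and COL18A1, with at most 1 IgG site, are not drawn.

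By region, coding sequence held 71 of the 186 PDCD4 sites of the collagens (38.2%, 31.2% to 45.6%) and introns held 68 (36.6%, 29.6% to 43.9%). The remainder comprised 38 sites in 3′UTRs (20.4%), 8 in 5′UTRs (4.30%) and the site outside the gene. Over all PDCD4 sites, 20.9% were coding and 49.6% intronic.

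The IgG sites of the collagens were mostly intronic, 36 of 53 (67.9%, 53.7% to 80.1%), and 7 were coding (13.2%, 5.48% to 25.3%). These shares were near those of the whole IgG list, 66.0% intronic and 9.72% coding. In cDNAs, the PDCD4 to IgG log2 ratio of the collagens was 2.58 (1.99 to 3.36) in coding sequence (1.11 over all genes), 1.85 in 3′UTRs (0.22 over all genes) and 1.24 in 5′UTRs (0.70 over all genes), the last with an interval that included 0 (-0.03 to 3.20). Without COL4A2, the coding value was 1.91 (1.14 to 2.97), the 3′UTR value 1.55 (0.34 to 3.50) and the 5′UTR value 0.02 (-1.68 to 2.07).

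**Figure D3:**
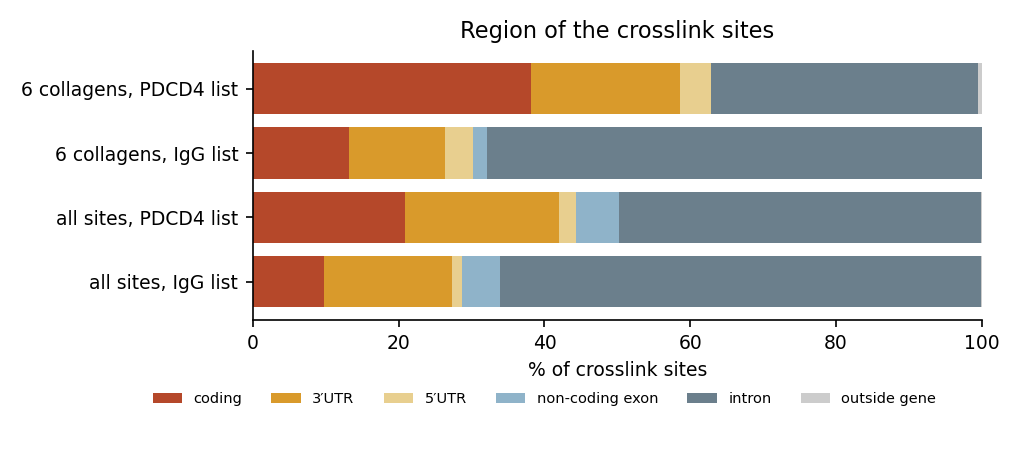
Percentage of crosslink sites (horizontal axis, 0 to 100) in coding sequence, 3′UTR, 5′UTR, exons of non-coding transcripts, introns and outside the annotated gene. The collagens in the PDCD4 list have 38.2% coding and 36.6% intronic sites, whereas the collagens in the IgG list (67.9% intronic) resemble the whole IgG list (66.0% intronic).

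The last exon of COL4A2 held the most sites of its exons with either antibody. Exon 48 (chr13:110511934-110513209, 1276 nt) encodes the end of the chain, including part of the globular NC1 domain that joins trimers head to head, and the 3′UTR. It held 33 PDCD4 sites, with 87 cDNAs, 7 coding and 26 in the 3′UTR, and 4 IgG sites with 14 cDNAs. The density was 25.9 PDCD4 sites per kb and 3.13 IgG sites per kb. This exon carried 44.8% of the PDCD4 cDNAs in exons of the main COL4A2 transcript (87 of 194) and 77.8% of the IgG cDNAs (14 of 18). Ahead of it, the exons thus held 107 PDCD4 and 4 IgG cDNAs. On positions over 60 nt from an exon end, whose relevance is described with the exon lengths, these exons had 16.0 PDCD4 sites per kb, and the log2 ratio of last exon to these was 0.69, with an interval that included 0 (-0.02 to 1.39).

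The sites of the last exon began 35 nt from its start and ended 276 nt before its end. The densest stretch of 5 nt, at chr13:110512929-110512933, held 4 sites with 16 cDNAs and includes the 3′UTR site printed above. A single position of the collagens was shared by both lists, 110512537 in this exon, with a score of 3 in each. The last exons of COL4A1 (5 sites, 3.37 per kb) and COL17A1 (5 sites, 4.98 per kb) held PDCD4 sites more sparsely, and those of COL7A1 and COL18A1 had no PDCD4 site. With IgG, the last exon of COL4A1 held 3 sites (2.02 per kb) and that of COL17A1 none.

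Upstream of its last exon, COL4A2 had 36 coding PDCD4 sites spread over 19 exons. Exon 20 (150 nt) held 5 sites with 12 cDNAs, and exon 1, at the 5′UTR, 4 sites with 9 cDNAs. In the IgG list only exon 37 of these exons had a site. Intron 3 of COL4A2 (49348 nt) held 37 cDNAs at 15 PDCD4 sites and 18 cDNAs at 7 IgG sites, and intron 4 (67181 nt) held 5 and 4 sites.

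**Figure D4:**
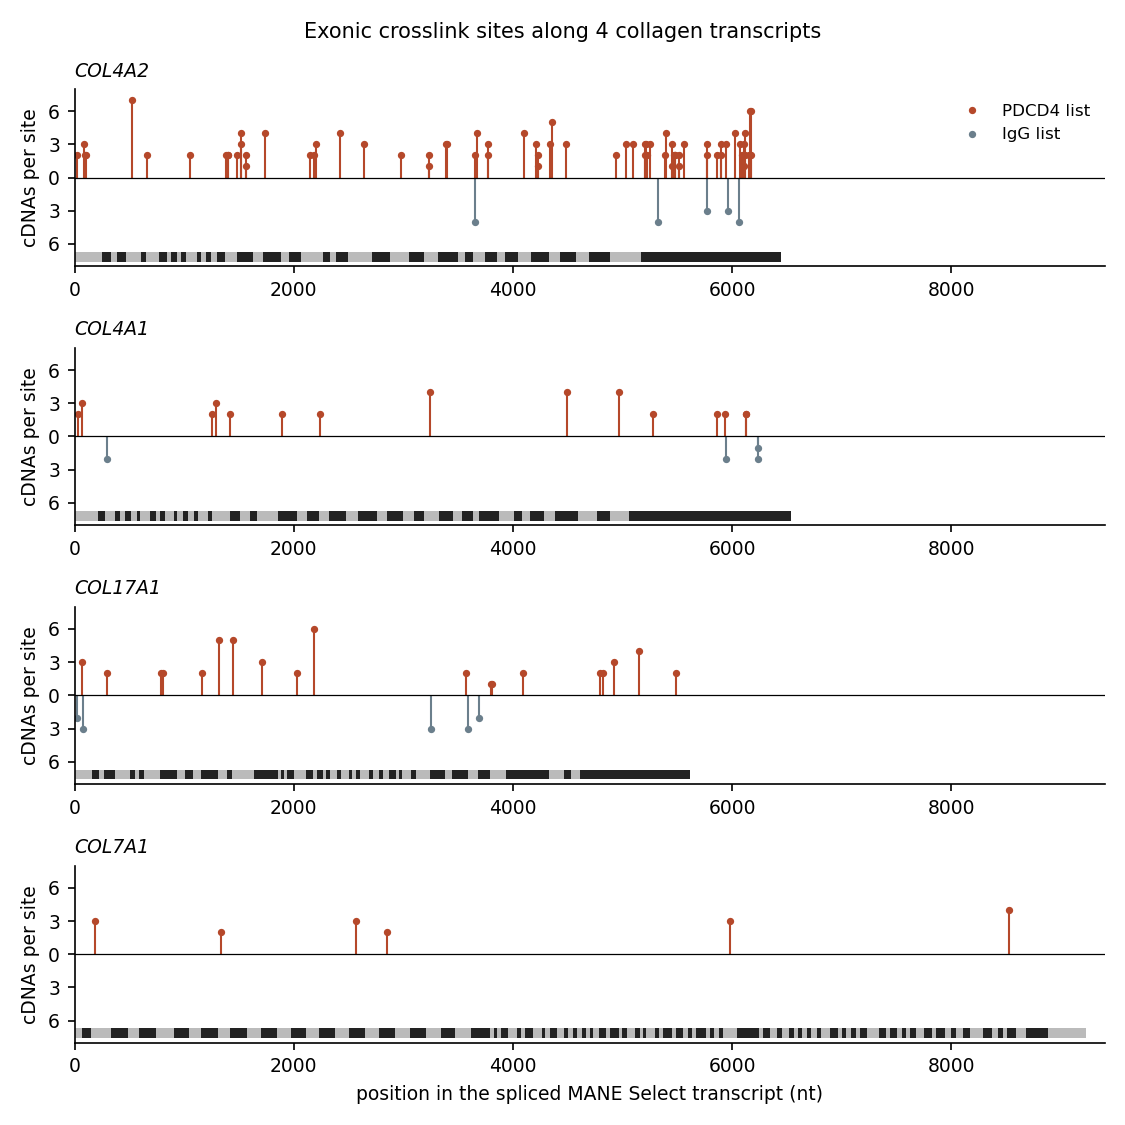
Exonic crosslink sites along the spliced transcripts of COL4A2, COL4A1, COL17A1 and COL7A1 (horizontal axis, position in nt), with the cDNAs per site of the PDCD4 list upward and of the IgG list downward; the band marks successive exons in alternating grey and black. COL4A2 is contacted along its length, with 33 PDCD4 sites in its last exon, while COL7A1 has 6 scattered PDCD4 sites and no IgG site.

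The sites were distributed unevenly with respect to exon length. The 6 transcripts have 383 exons, of which 258 are shorter than 100 nt and 162 are 60 nt or shorter. Exons of at least 100 nt held 106 PDCD4 sites (3.90 per kb) and shorter exons 8 (0.552 per kb), a log2 ratio of 2.82 (1.79 to 4.07). Over all protein-coding genes with a PDCD4 site the densities were 1.51 and 0.651 per kb, a log2 ratio of 1.22. Per nt, the ratio of the collagens was higher than that of the other genes by 1.61 (0.58 to 2.86).

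This difference coincided with the distance to the end of the exon. In exons that precede an intron, 2 of 71 PDCD4 sites of the collagens lay within the last 60 nt (2.82%, 0.343% to 9.81%), although these windows comprise 60.03% of the exonic positions. Over all genes 4.86% of PDCD4 sites and 7.08% of IgG sites lay there, against 36.6% of positions, so the scarcity was shared by both lists and by the transcriptome. In COL4A2, the coding sites ahead of the last exon lay between 64 and 232 nt from the exon end.

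When only positions over 60 nt from such an exon end were counted, the densities in long and short exons of the collagens were 5.24 and 4.31 sites per kb, a log2 ratio of 0.28 with an interval that included 0 (-0.81 to 1.63). All genes gave -0.41 on these positions, and the collagens without COL4A2 gave -0.43 (-1.91 to 1.52). What sets the 60 nt limit, including how reads that cross a splice junction were aligned, was not tested. An exception was the COL17A1 site with 6 cDNAs, which lay in an exon of 36 nt, 23 nt from its end.

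**Figure D5:**
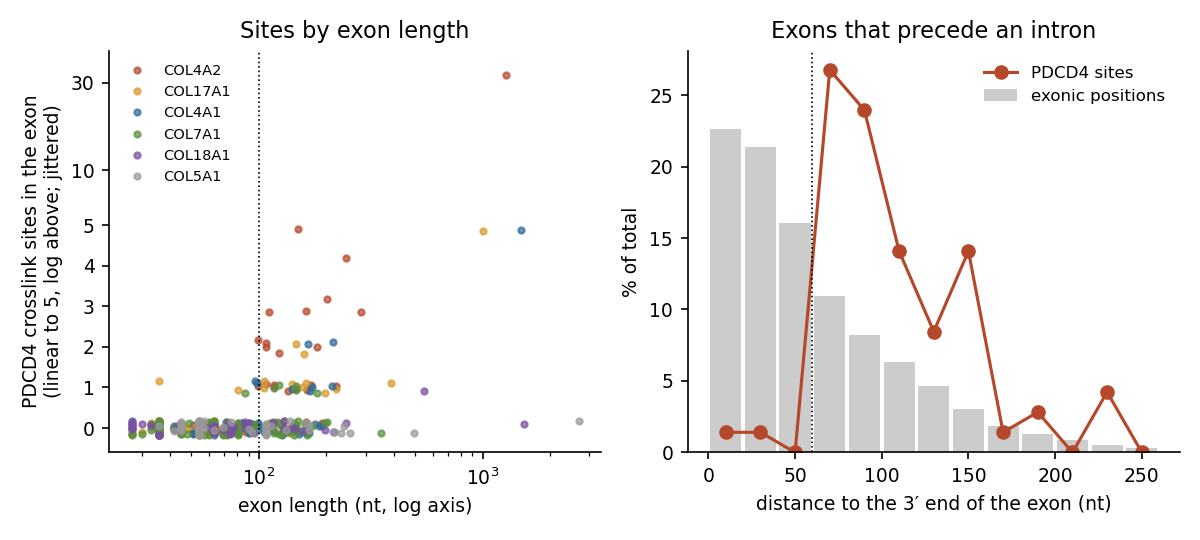
Left, PDCD4 sites in each of the 383 exons of the 6 collagens (linear to 5 and logarithmic above, with vertical jitter) against exon length (nt, log axis), with a dotted line at 100 nt. Right, percentage of the PDCD4 sites (line) and of the exonic positions (bars) in 20 nt bins of distance to the exon end, for exons that precede an intron, with a dotted line at 60 nt. Only 2 of 71 sites fall left of that line, where 60.03% of the positions lie.

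Counting only these positions together with the last exons, COL4A2 had 19.4 PDCD4 sites per kb (15.2 to 24.4), COL17A1 6.09 (3.55 to 9.75), COL4A1 4.05 (2.27 to 6.68), COL7A1 1.84 (0.675 to 4.002) and COL18A1 0.306 (0.00776 to 1.71). The order placed COL4A2 above all others beyond the intervals. The intervals of COL17A1, COL4A1 and COL7A1 overlapped one another, and those of COL7A1 and COL18A1 overlapped. In the IgG list COL4A2 (1.33), COL17A1 (1.79) and COL4A1 (1.08) lay close together, with overlapping intervals. All protein-coding genes with a PDCD4 site had 1.69 PDCD4 sites and 0.738 IgG sites per kb.

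Gly-X-Y repeats, taken as runs of at least 5 triplets, held a smaller share of the coding sites than of the coding positions in each gene. In COL4A2, 29 of 43 coding PDCD4 sites lay in repeats (67.4%, 51.5% to 80.9%), against 74.6% of positions. In COL4A1 it was 5 of 8 against 78.6%, in COL17A1 2 of 13 (15.4%, 1.92% to 45.4%) against 37.1%, and in COL18A1 none of 1. In COL7A1 none of 6 coding sites lay in repeats (upper bound 45.9%), where 48.3% of its positions lie. Except in COL7A1, the interval of each gene included its share of positions.

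Together, the repeats held 36 of 71 coding sites (50.7%, 38.6% to 62.8%). The share of positions was 56.1% over the 6 genes, and 65.5% when each gene was weighted by its sites. Beyond 60 nt from the exon end, 35 of 69 sites lay in repeats (50.7%, 38.4% to 62.98%), against 59.3% of positions weighted in this way and 41.0% unweighted. On these positions 18.3% of those of COL7A1 lie in repeats, below the upper bound of its sites. By codon position, the 71 coding sites were 23, 20 and 28 at positions 1, 2 and 3.

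Intronic sites lay in different kinds of intron. COL7A1 introns are short, with a median of 119 nt, and its 7 PDCD4 sites lay in introns of 73 to 647 nt, 6 of them within 100 nt of a splice site. By contrast, none of 33 intronic sites of COL4A2 lay within 100 nt of a splice site of the main transcript, and the 8 introns that held them were 2150 to 67181 nt long. In the COL7A1 introns of 73, 83 and 103 nt every position is within 100 nt of a splice site, so this contrast depends on intron length. Of the 8 COL18A1 sites, 5 lay in intron 2 (62768 nt). In COL17A1, 13 intronic sites lay in 9 introns of 332 to 1417 nt, and 5 were within 100 nt of a splice site.

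The base at the crosslink was less often T (uridine in the RNA) in collagens than elsewhere. In the PDCD4 list, 51 of 186 collagen sites were at T (27.4%, 21.1% to 34.4%), against 46.7% of all sites. In coding sequence the share was 14.1% (6.97% to 24.4%), against 34.4% of all coding sites. In introns it was 38.2% (26.7% to 50.8%), an interval that included the 50.1% of all intronic sites. The 29 nt windows of coding collagen sites also held less T, 17.4% against 23.1% over all coding sites. Relative to these windows, T was 14.1% at the site against 17.4% around it in the collagens, and 34.4% against 23.1% over all coding sites.

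Among bases at coding collagen sites, C was the most frequent (43.7%, 31.9% to 56.0%), with 33.2% over all coding sites. In the IgG list 18 of 53 collagen sites were at T (34.0%, 21.5% to 48.3%), against 51.6% of all IgG sites. Over all sites of the collagens, the lower share of T was thus present with both antibodies. In coding sequence it was not seen with IgG, where 3 of 7 collagen sites were at T, against 36.1% of all coding IgG sites. These sites are too few to compare.

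The signal of the collagens was spread over many positions. The 10 highest sites held 53 of 472 cDNAs (11.2%, 8.53% to 14.4%), and after merging of sites within 20 nt the 10 highest of 144 clusters held 20.8%. Within 20 nt of another site of the same list were 66 of 186 PDCD4 sites (35.5%) and 2 of 53 IgG sites (3.77%), lists that differ in the number of sites. Only 4 collagen sites had a score greater than 5, the filter named in the methods, 3 of them in COL4A2 and 1 in COL17A1, and none did in the IgG list.

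Genes that act with these collagens were described from lists set by symbol. The lists were chosen with earlier results of these data known, so their counts are descriptions and not tests. Of 38 other collagens 13 had a site and 7 could be compared, of which COL5A2 (11 and 3 cDNAs) and COL6A3 (13 cDNAs and none listed) were at least 2-fold higher (28.6%, beside 18.8% of all genes). Both calls rest on few cDNAs, the interval of COL5A2 included 0 (-0.61 to 3.79), and with at least 20 cDNAs required the count was 0. The median log2 ratio was 0.43. Of the further type IV collagens, COL4A5 and COL4A6 did not share the values of COL4A2. COL4A5 had 130 PDCD4 and 152 IgG cDNAs, a log2 ratio of -0.79 (-1.14 to -0.45), and COL4A6 had 79 and 54, a log2 ratio of -0.03. COL4A3 and COL4A4 had fewer than the 10 cDNAs required for comparison. COL8A1, a short-chain collagen, had 147 and 72 cDNAs (0.45, 0.05 to 0.89).

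Of 34 genes of collagen biosynthesis, 23 could be compared, with 4 at least 2-fold higher (17.4%, close to the 18.8% of all genes), none lower and a median of 0.43. P4HB, the β subunit of prolyl hydroxylase, had 151 PDCD4 and 27 IgG cDNAs, a log2 ratio of 1.87 (1.32 to 2.56). The chaperone FKBP10 had 58 and 14 cDNAs (1.41, 0.62 to 2.44). The catalytic subunit P4HA1 had 28 and 33 cDNAs (-0.80, -1.59 to -0.03), and the lysyl hydroxylase PLOD2 had 73 and 84 (-0.77, -1.24 to -0.30).

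Among 12 basement membrane partners compared, 5 were at least 2-fold higher (41.7%, beside 18.8% of all genes) and 1 lower (beside 18.1% of all genes). Their median was 0.74, against -0.08 for all genes compared. The laminin chains LAMB2 (32 and 4 cDNAs, 2.15) and LAMA5 (932 and 180 cDNAs, 1.80) and the proteoglycan agrin, AGRN (562 and 141 cDNAs, 1.42), had the highest ratios of those with at least 20 cDNAs. SPARC, which binds collagen, had 5 PDCD4 and 17 IgG cDNAs, a log2 ratio of -2.15 (-4.13 to -0.84).

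Of 6 genes listed as partners at hemidesmosomes, the junctions that hold COL17A1, 4 were at least 2-fold higher (66.7%, beside 18.8% of all genes), with a median of 1.38. The list includes PLEC, which the paper names among its most enriched transcripts, so this share is not a test. The cytolinker PLEC, which binds keratin filaments, had 4278 PDCD4 and 193 IgG cDNAs, a log2 ratio of 3.90 (3.69 to 4.12), and the integrin ITGB4 had 439 and 118 cDNAs (1.32, 1.03 to 1.63). Its partner ITGA6 had 133 and 99 cDNAs, a log2 ratio of -0.15 (-0.53 to 0.25). Of 6 collagen receptors compared, only ITGA10 was at least 2-fold higher (16.7%, close to the 18.8% of all genes), and the median was 0.29. ITGA10 had 28 PDCD4 cDNAs and none listed for IgG.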

How the data were processed

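The iCLIP data of 4 samples (2 PDCD4, 2 IgG) were used. The deposited score is a raw count of cDNAs per 1-nt crosslink site, made by the authors with iCount on the Ensembl release 88 genome (GRCh38), with replicates pooled and a false discovery rate filter applied. Alignment settings are not given in the sources used here. The methods describe subtraction of IgG sites and a filter on scores greater than 5. The filter is not applied in the deposited lists, and every listed site was used. The methods place the subtraction before peaks were called. However, 721 positions occur in both lists, so how far the subtraction touched the PDCD4 values is unknown.

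Members and lists were chosen with earlier results of these data known. Sites were assigned on their strand to GENCODE release 44 (a later release of the same build) with coding sequence taking precedence, then 3′UTRs, 5′UTRs, non-coding exons and introns. Exon positions used the MANE Select transcript, and windows were read from the reference genome. Shares are relative to the summed cDNAs of each list, ratios add 1 cDNA to each sum, and intervals are exact (Clopper-Pearson, Poisson, or conditional for odds ratios). cDNAs of 1 site are not independent, so differences between collagens are also given in sites. Intervals between lists treat each pooled list as 1 sample.

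Genes named beside the collagens are, per list, the 3 highest and the 3 lowest by ratio among those with at least 20 cDNAs, summarised in part. COL5A2, COL6A3, the T tract and the dense stretch of COL4A2 were chosen after their values were seen. Calculations were tested on simulated data (Python 3.11.15, numpy 2.4.6, pandas 2.3.3, scipy 1.17.1, matplotlib 3.10.9, Biopython 1.88).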

Additional observations from a re-analysis of the deposited data

How the results depend on the processing

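No paired analysis was possible because the deposited lists pool the replicates, and for the same reason no replicate could be left out. The log2 ratio of the 6 collagens (1.23) was 2.74 with scores greater than 5, where the IgG list had no collagen site, and 1.58 with exonic sites only, relative to the exonic cDNAs of each list. Without COL4A2, an alternative added after the data were seen, it was 0.86. With scores greater than 5, 1 collagen in place of 3 was at least 2-fold higher, and the coding share of PDCD4 sites was 50% of 4 sites. The score threshold gave no coding share for IgG. With exonic sites only, 2 collagens were at least 2-fold higher. COL18A1 then had 2 PDCD4 cDNAs and none listed for IgG, fewer than the 10 required for comparison. Its log2 ratio of 0.44 therefore rests on the 1 cDNA added to each sum. The log2 ratio of site density in long over short exons (2.82) was 4.56 with a boundary at 63 nt, where all genes gave 2.68, and 1.70 with a boundary at 150 nt, where all genes gave 0.48. At 63 nt the interval of the collagens (2.05 to 9.87) included the value of all genes. Limited to positions over 60 nt from the exon end, also added after the data were seen, it was 0.28, and it reversed to -0.43 when COL4A2 was left out as well; both intervals included 0. Merging sites within 20 nt raised the share of cDNAs in the 10 highest sites from 11.2% to 20.8%. No other result reversed in direction in the alternatives run, which also covered scores of 2 or more, site numbers, other totals, shared positions, pseudocounts and other region orders. The depth limited COL18A1 and COL7A1 most, with 22 and 36 PDCD4 cDNAs.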
